A study of Mus musculus with 6 samples.

Results

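Imprinted genes were examined in the adrenal gland of adult female C57Bl/6J mice exposed during development to CGP 39551 (CGP), a drug that blocks glutamate receptors of the NMDA (N-methyl-D-aspartate) class. A list of 39 genes known to be imprinted in the mouse was matched to the platform annotation, and a gene was a member if a probe set carried its symbol and no other. This gave 30 genes with a single probe set each, among 15384 genes with such a probe set. A further 4 listed genes (Mirg, Snrpn, Gnas and Ube3a) were named only on probe sets that carried several symbols, and 5 (H19, Usp29, Kcnq1ot1, Mkrn3 and Calcr) are not analysed here.

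The study asked whether NMDA receptor antagonism in development alters gene expression in the adult adrenal. The CGP group were female offspring of mothers dosed orally at 5 mg/kg from pregnancy to the end of weaning, and the control group were female offspring of the same strain and age, with no vehicle named in the labels. Adrenals of both groups were collected at 21 weeks. Each group had 18 mice whose RNA was pooled, and 3 arrays. The labels do not show whether the arrays of a group came from separate pools. The p-values, SE and intervals therefore measure only the spread between arrays, which may be technical.

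An imprinted gene is expressed from a single parental copy. In many cases the choice of copy depends on DNA methylation laid down in the egg or the sperm. Such genes lie in clusters that share an imprinting control region, and many act on fetal growth, placental function and energy balance, with paternally expressed genes often promoting growth and maternally expressed genes often restraining it. Several of them, including Dlk1, Peg10, Meg3 and Cdkn1c, are known to stay on in the adult adrenal. The arrays measured the total RNA of both copies, so they hold no information on which parental copy was used.

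The tissue label was checked against adrenal markers. In the control group the mean log2 values were 13.5 for Star (cholesterol import into mitochondria), 13.7 for Cyp11a1, 13.8 for Cyp21a1 and 14.0 for Cyp11b1 (steroid synthesis enzymes), and 13.04 for Th, 12.4 for Dbh and 12.3 for Pnmt (catecholamine synthesis enzymes). None of these 7 genes passed the test between groups (limma, adjusted p of 0.318 to 0.941). Markers of other tissues did differ. Of 31 hepatocyte genes tested, 29 passed the test as lower in the CGP group and none as higher (93.5%, against 3.53% of all probe sets tested). Cyp2e1 and Hp had positive differences (0.17 and 0.10) and did not pass. The median of the list was 10.03 to 10.10 on the control arrays and 8.92 to 9.16 on the CGP arrays. Albumin (Alb) was at 13.40 in the control and 12.98 in the CGP group. Of 14 adipocyte genes, 12 passed it as higher (85.7%), and all 14 were higher on every CGP array. The list medians were 10.9 to 11.0 on the control arrays and 11.5 to 11.6 on the CGP arrays. Adipoq, the fat hormone adiponectin, was at 11.0 and 11.5. In bulk tissue, fewer cells of a type and less RNA per cell cannot be told apart.

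Most of the imprinted genes were detected. Background came from 128 probe sets of trace amine, vomeronasal and olfactory receptors, genes of the sense of smell, taken at their 75th percentile, and lay at 6.41 to 6.65. Of the 30 genes, 25 were above it on all 6 arrays. Zdbf2 was above it on 3 arrays, and Rian and Ascl2 on 1 array each. Zim1, a maternally expressed zinc finger gene beside Peg3, and Asb4, a maternally expressed ubiquitin ligase subunit, were at background on every array, and Asb4 also fell under the filter on low values, which left 29 genes tested. Levels of different genes come from different probes and are not on a common scale.

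**Figure D1:**
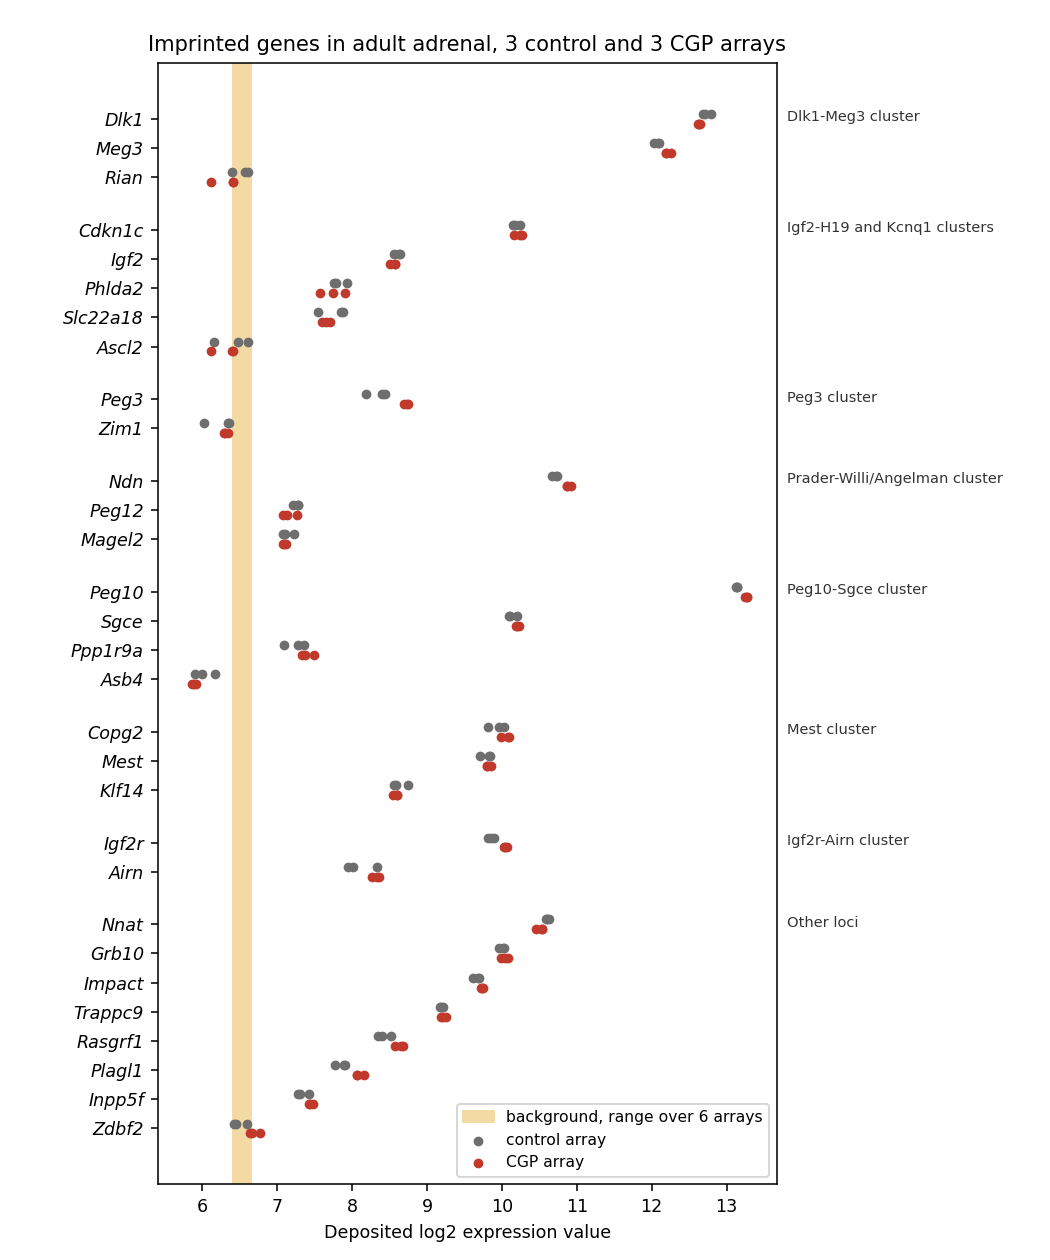
Log2 expression value (horizontal axis) of the 30 imprinted genes by array (control grey, CGP red, n = 3 each), grouped by imprinted cluster. The shaded band is the background of the receptor probe sets, 6.41 to 6.65, and 25 of the genes lie above their array's background on all 6 arrays.

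Of the 29 imprinted genes tested, 1 differed between the groups (3.45%, against 3.53% of all 16034 probe sets tested), and it was Peg3, which was higher after CGP. Of all probe sets tested, 1.94% were called higher and 1.59% lower, and no imprinted gene was called lower. Peg3 is a paternally expressed zinc finger protein that regulates growth, energy use and maternal behaviour. Its log2 values were 8.39, 8.18 and 8.44 on the control arrays and 8.75, 8.73 and 8.69 on the CGP arrays. All CGP arrays lay above all control arrays, and control array 2 was the lowest. The group means were 8.34 ± 0.14 and 8.72 ± 0.03 (SD, n = 3 each), a difference of 0.38 (SE 0.07, 95% interval 0.22 to 0.55, 1.31-fold, limma adjusted p = 0.0283).

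The call on Peg3 was lost when CGP array 1 (adjusted p = 0.0981), CGP array 2 (0.120) or CGP array 3 (0.105) was left out. It was also lost when probe sets without a single symbol were tested too (0.0783), and with the array number as a block (0.0921). Over all 15 alternatives the adjusted p ran from 0.00317 to 0.120, and the difference from 0.31 to 0.44. The hepatocyte and adipocyte lists moved with the groups as given above, and so did the capsule and stroma list, with medians of 8.37 to 8.48 on the control arrays and 8.55 to 8.62 on the CGP arrays, of whose 10 genes 1 was called. The medians of 8 endothelial genes (9.85 to 9.89 and 9.92 to 9.96) and 10 adrenal cortex genes (13.07 to 13.16 and 13.19 to 13.26) were also apart with 0 genes called, while those of 10 chromaffin genes overlapped. The part of these lists in the result for Peg3 was not tested.

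Peg3 lies on chromosome 7, and its start is 164 bases from that of Usp29, a paternally expressed gene that runs the other way, so their start windows overlap by 263 bases. The sequence before the Peg3 start is shown because Peg3 was the gene that differed, beside that of Plagl1, the gene with the next smallest p. Both are from RefSeq on GRCm38.p6 and give the 250 bases before the start, 5′ to 3′ along the gene's strand, with each CG, the dinucleotide that DNA methylation marks, in capitals. The Peg3 sequence, chr7:6730420-6730669 on the minus strand, holds 8 CG, and the Plagl1 sequence, chr10:13090582-13090831 on the plus strand, holds 19.
Peg3: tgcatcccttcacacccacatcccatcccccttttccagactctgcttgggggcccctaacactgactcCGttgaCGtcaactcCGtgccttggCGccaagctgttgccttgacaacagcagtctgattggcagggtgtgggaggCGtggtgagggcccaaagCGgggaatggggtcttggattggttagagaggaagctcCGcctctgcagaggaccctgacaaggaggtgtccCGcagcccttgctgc
Plagl1: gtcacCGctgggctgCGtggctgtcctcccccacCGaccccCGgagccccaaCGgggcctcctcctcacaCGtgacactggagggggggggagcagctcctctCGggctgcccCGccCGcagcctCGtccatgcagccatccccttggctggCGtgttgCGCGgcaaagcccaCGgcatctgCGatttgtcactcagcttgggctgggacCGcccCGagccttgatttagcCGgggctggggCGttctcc

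The windows of 300 bases around gene starts were searched on both strands for TGCCGC, the motif bound by ZFP57 when methylated, a protein that keeps imprints after fertilisation. Of the 24 imprinted genes with a window, 9 held it (37.5%), against 13.1% of all 27025 genes with one. Plagl1 held it, and Peg3 did not. The median number of CG per window was 13.5 for the imprinted genes and 7 for all promoters. These are descriptions of the sequence, and the methylation of the windows was not measured.

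A further 8 imprinted genes had an unadjusted p under 0.05 without passing the adjusted threshold, and all 8 were higher in the CGP group. With Peg3 they make 9 of 29 genes (31.0%), against 19.3% of all probe sets tested. Probe sets with such a p and a higher value made up 10.8% of all probe sets tested. Groups did not overlap for 11 of the 29 genes (37.9%, against 26.3% of all probe sets), with the CGP arrays above in 9 and below in 2 (13.7% and 12.6% of all probe sets). An unadjusted p under 0.05 with a lower value, which 8.52% of all probe sets had, was found for none of the 29 genes. The median difference of the 29 genes was 0.07 and that of all probe sets tested was -0.01. The differences ran from -0.22 for Rian to 0.38 for Peg3, and the SE from 0.04 to 0.12. The number called depended on the arrays and on the variance model. It was 4 without control array 1 (Airn, Peg3, Plagl1 and Rasgrf1) and 0 without any of the CGP arrays, and without control array 2 the median difference was 0.025.

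Plagl1, a paternally expressed zinc finger protein that restrains cell division, had log2 values of 7.90, 7.77 and 7.89 on the control arrays and 8.06, 8.07 and 8.15 on the CGP arrays, with no overlap. The difference was 0.24 (95% interval 0.11 to 0.36, limma adjusted p = 0.0638). It passed the threshold in 6 of the 15 alternatives, among them leaving out control array 1 (adjusted p = 0.0497), and over all 15 its adjusted p ran from 0.0304 to 0.220. Rasgrf1, a paternally expressed exchange factor for Ras proteins linked to growth after birth, was at 8.52, 8.35 and 8.40 on the control arrays and at 8.68, 8.66 and 8.57 on the CGP arrays. The groups did not overlap, and the difference was 0.21 (adjusted p = 0.112). Zdbf2, a paternally expressed gene tied to feeding in newborns, was near background, at 6.45, 6.42 and 6.59 on the control arrays and 6.77, 6.66 and 6.64 on the CGP arrays. The CGP arrays lay above the control arrays, by 0.21 on average (adjusted p = 0.131). Every control value was under the background of its array, and every CGP value was above it. With values under background raised to it, the change was 1.08-fold, against 1.15-fold without this.

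The Igf2r-Airn cluster holds a growth regulator and the non-coding RNA that silences it on the paternal copy. Igf2r, the maternally expressed receptor that takes insulin-like growth factor 2 to the lysosome, was at 9.86, 9.82 and 9.89 on the control arrays and at 10.03, 10.06 and 10.04 on the CGP arrays. The groups did not overlap, and the difference was 0.19 (95% interval 0.09 to 0.29, limma adjusted p = 0.0641). Airn, the paternally expressed RNA, was at 8.33, 7.94 and 8.02 on the control arrays and at 8.36, 8.34 and 8.27 on the CGP arrays. Control array 1 lay among the CGP arrays, so the groups overlapped, and the difference was 0.23 (adjusted p = 0.249). Airn runs antisense across the start of Igf2r, and whether the probe sets separate the strands is not given in the sources used here.

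Of the Prader-Willi/Angelman cluster, 3 genes were tested. Ndn, which encodes necdin, a paternally expressed protein that holds back growth in neurons, was at 10.73, 10.67 and 10.72 on the control arrays and at 10.87, 10.87 and 10.92 on the CGP arrays. The groups did not overlap, and the difference was 0.18 (95% interval 0.08 to 0.28, limma adjusted p = 0.0765). Its paternally expressed neighbours Magel2, a ubiquitin ligase partner, and Peg12 had differences of -0.04 and -0.10, with overlap between the groups.

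**Figure D2:**
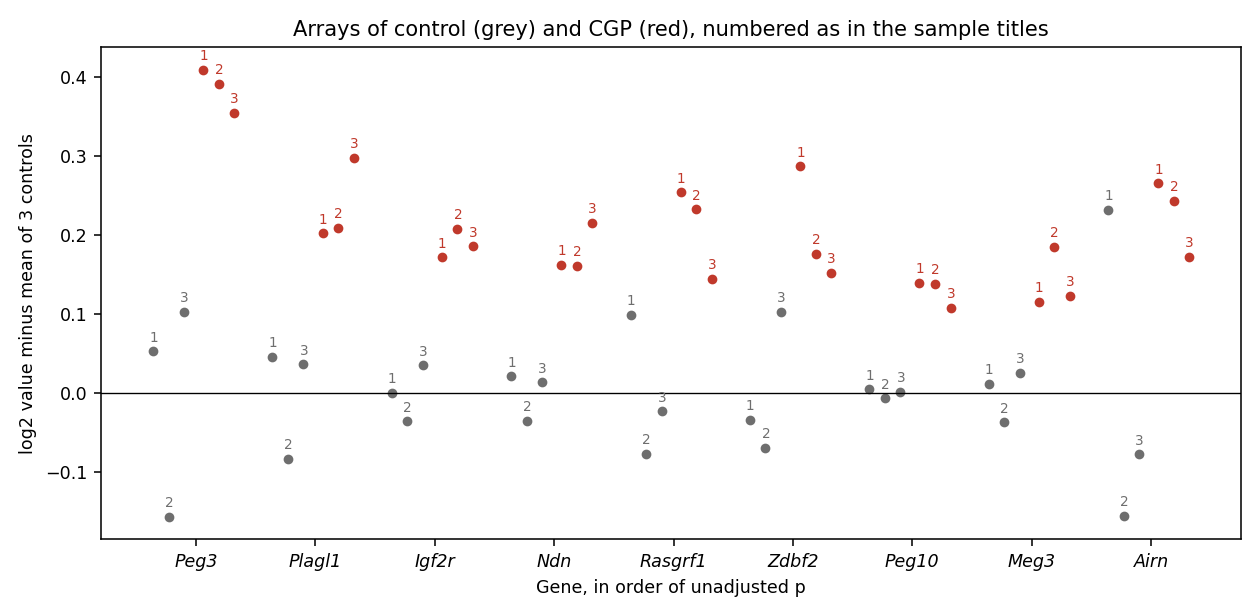
Log2 value on each array minus the mean of the 3 control arrays (vertical axis), for the 9 imprinted genes with an unadjusted p under 0.05, with grey for control and red for CGP and numbers for the arrays. The CGP arrays lie above all control arrays in each gene but Airn, where control array 1 lies among them.

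In the Dlk1-Meg3 cluster Dlk1 and Meg3 stood apart in sign, and neither passed the test. Dlk1, a paternally expressed membrane protein of the Notch ligand family that is found in immature cells of the adrenal, was at 12.69, 12.79 and 12.72 on the control arrays and at 12.61, 12.64 and 12.63 on the CGP arrays. The CGP arrays lay below the control arrays, by 0.10 on average (difference -0.10, 95% interval -0.21 to 0.01, limma adjusted p = 0.288). Meg3, a maternally expressed long non-coding RNA, was at 12.08, 12.04 and 12.10 on the control arrays and at 12.19, 12.26 and 12.20 on the CGP arrays. Here the CGP arrays lay above, with a difference of 0.14 (95% interval 0.04 to 0.25, adjusted p = 0.148). Rian, a maternally expressed host of small nucleolar RNAs, was above background on 1 array. Its difference was -0.22 (adjusted p = 0.261), with the sign of Dlk1 and not of Meg3.

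The same cluster holds a long maternal array of microRNA genes. Of 51 listed, 27 had a probe set with their symbol alone and 21 were tested, and none passed the adjusted threshold (limma). An unadjusted p under 0.05 was found for 3 (14.3%, against 19.3% of all probe sets tested). The median difference of the 21 was -0.06, with 14 negative and 7 positive. The values are of RNA from these loci on whole-transcript arrays and not of mature microRNAs. Mir134 was at 9.04, 9.17 and 9.21 on the control arrays and at 8.99, 8.99 and 8.83 on the CGP arrays, all below the control arrays (difference -0.21, adjusted p = 0.148). Mir679 was likewise below on all CGP arrays (-0.18, adjusted p = 0.158), and Mir665 was above (0.13, adjusted p = 0.241). These 3 genes were chosen after their values were seen. Their mature sequences from RefSeq on GRCm38.p6 are shown with the seed, bases 2 to 8 by which a microRNA pairs with its targets, in capitals, to show that no seed was shared among them.
mmu-miR-134-5p: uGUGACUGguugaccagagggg
mmu-miR-134-3p: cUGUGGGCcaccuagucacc
mmu-miR-679-5p: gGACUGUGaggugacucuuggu
mmu-miR-679-3p: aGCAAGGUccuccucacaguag
mmu-miR-665-5p: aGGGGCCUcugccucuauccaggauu
mmu-miR-665-3p: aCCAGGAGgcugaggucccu
For the 21 tested genes, 40 mature sequences were found in the table, and they had 40 different seeds.

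The Peg10-Sgce cluster on chromosome 6 had 3 tested genes, all with a positive difference. Peg10, a paternally expressed gene derived from a retrotransposon and needed for the placenta, was at 13.14, 13.13 and 13.14 on the control arrays and at 13.27, 13.27 and 13.24 on the CGP arrays. The groups did not overlap, and the difference was 0.13 (95% interval 0.03 to 0.23, limma adjusted p = 0.147). Sgce, a paternally expressed sarcoglycan of the cell membrane, differed by 0.07, and Ppp1r9a, an actin-binding phosphatase partner expressed from the maternal copy in some tissues, by 0.16, and in both the groups overlapped.

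The Igf2-H19 and Kcnq1 clusters on chromosome 7 had 5 tested genes, of which 4 had a negative difference and none had groups without overlap. Igf2, the paternally expressed fetal growth factor, was at 8.64, 8.62 and 8.55 on the control arrays and at 8.57, 8.51 and 8.57 on the CGP arrays. The groups overlapped, and the difference was -0.06 (95% interval -0.17 to 0.05, limma adjusted p = 0.551). Cdkn1c, a maternally expressed inhibitor of the cell cycle, was at 10.15, 10.17 and 10.24 on the control arrays and at 10.26, 10.24 and 10.16 on the CGP arrays, also with overlap (difference 0.03, 95% interval -0.08 to 0.15). The other differences were -0.11 for Slc22a18, a transporter, -0.08 for Phlda2, a brake on placental growth, and -0.11 for Ascl2, a placental transcription factor mostly under background here.

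Nnat, a paternally expressed membrane protein of neurons and endocrine cells, was at 10.59, 10.60 and 10.62 on the control arrays and at 10.53, 10.53 and 10.46 on the CGP arrays. Like Dlk1 it was lower on every CGP array without passing the test (difference -0.09, 95% interval -0.20 to 0.01, limma adjusted p = 0.293). Impact, a paternally expressed regulator of translation, was above on every CGP array with a difference of 0.07 (adjusted p = 0.412). The growth inhibitor Grb10 (0.04), the trafficking factor Trappc9 (0.03) and the phosphatase Inpp5f (0.11) had positive differences with overlapping groups. In the Mest cluster, Mest, a paternally expressed enzyme of the hydrolase fold, differed by 0.03, Copg2, a coat protein subunit that overlaps it, by 0.12, and Klf14, a regulator of fat metabolism, by -0.05.

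**Figure D3:**
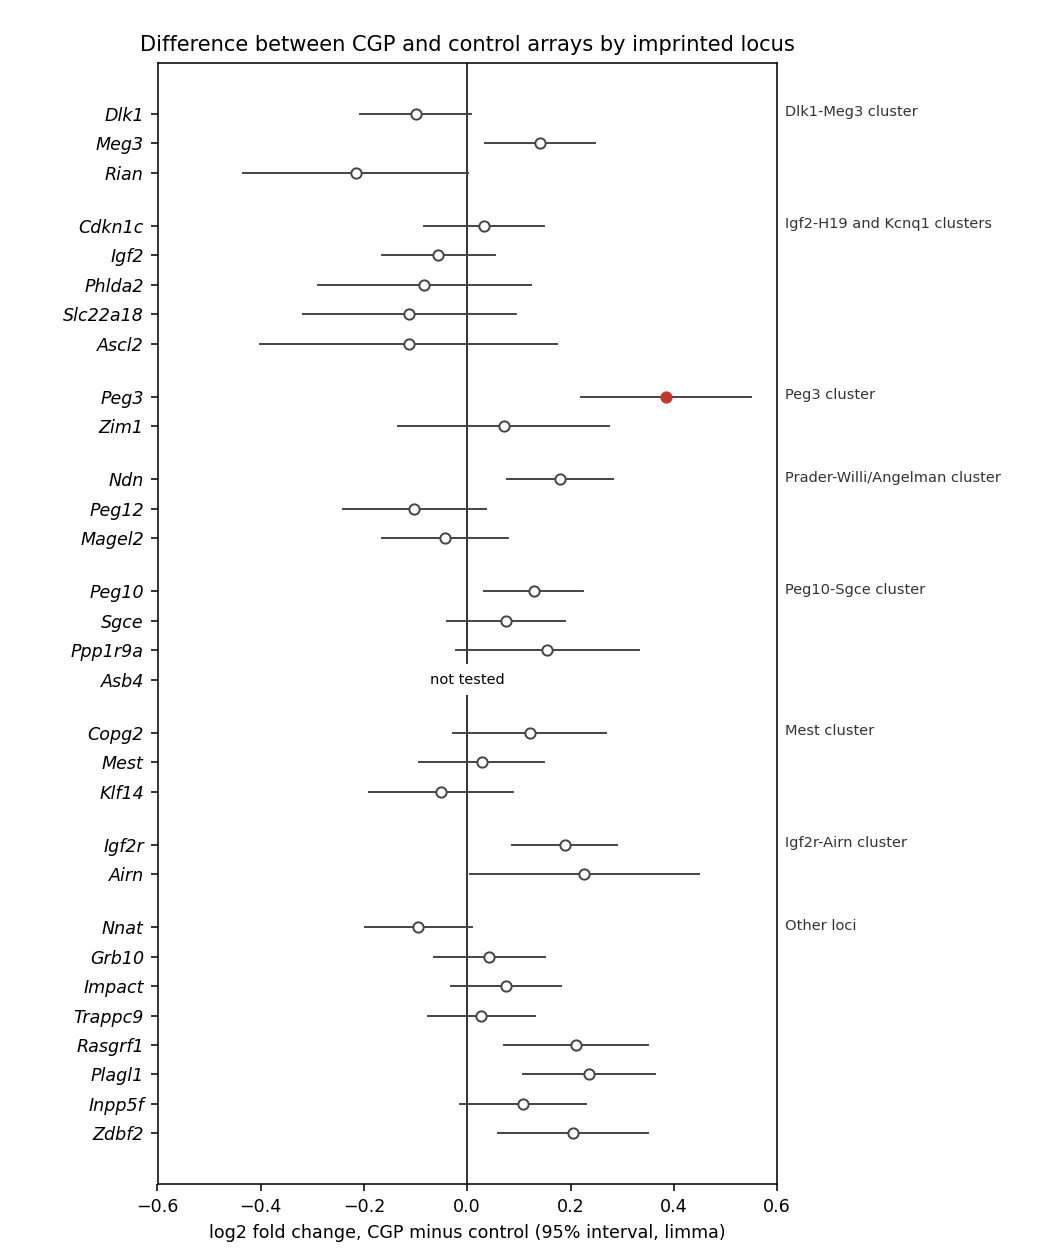
Difference in log2 value, CGP minus control (horizontal axis), for each imprinted gene with its 95% interval from limma, grouped by cluster. Peg3, filled in red, is the gene with an adjusted p under 0.05, and Asb4 is drawn without an interval because it was not tested.

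The genes were also split by the expressed copy known for each, which the arrays did not measure. The 16 paternally expressed genes tested had a median difference of 0.09, and in 9 of them (56.2%) the groups did not overlap. The 13 maternally expressed genes had a median of 0.03, and in 2 of them (15.4%) the groups did not overlap, against 26.3% of all probe sets tested. The classes also differed in detection and precision. Of the paternally expressed genes 15 were above background on all 6 arrays, and of the maternally expressed genes 10, with median SE of 0.053 and 0.064. The difference between these classes was not tested. For the 24 genes that were above background on all 6 arrays and not called, the largest change allowed by the 95% interval was between 1.09-fold and 1.37-fold, with a median of 1.17-fold, and it was under 1.3-fold for 23 of them. These bounds are for each gene alone. They rest on the spread between arrays, which may be technical, and do not bound the change between mice.

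**Figure D4:**
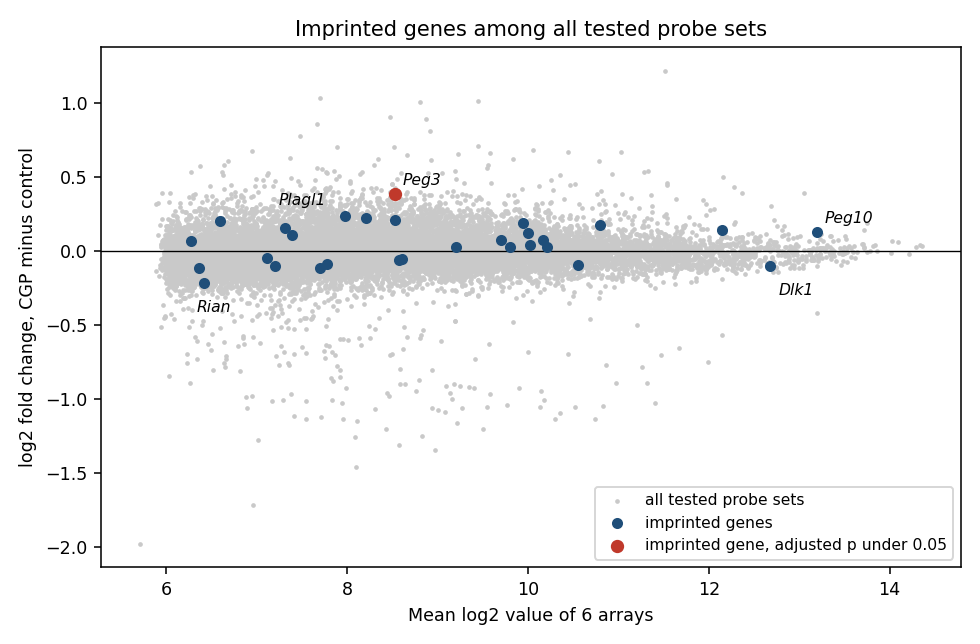
Difference in log2 value, CGP minus control (vertical axis), against the mean log2 value of 6 arrays (horizontal axis), for all 16034 probe sets tested (grey) and the 29 imprinted genes tested (blue, Peg3 in red). The imprinted genes lie between -0.22 and 0.38, within the grey cloud.

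Other imprinted genes were taken as a second list of 53, of which 39 were tested. Of these, 2 were higher, 1 was lower and 36 were not called (7.69% called, against 3.53% of all probe sets tested). The median difference was -0.03, and 28 of the 39 were negative (28.2% positive, against 45.6% of all probe sets tested). The groups did not overlap for 16 of the 39 (41%, against 26.3% of all probe sets tested). The CGP arrays lay below in 10 and above in 6 (12.6% and 13.7% of all probe sets tested). The median of the list was 8.61 to 8.71 on the control arrays and 8.52 to 8.53 on the CGP arrays. Kcnk9, a maternally expressed potassium leak channel of the outer cortex, was at 10.8 on average in the control group and 11.2 in the CGP group (difference 0.39, limma adjusted p = 0.00476). Pon3, a lipid-associated esterase gene in the Peg10-Sgce cluster, was at 9.72 and 10.0 (difference 0.29, adjusted p = 0.0137). This call was lost without control array 3 (0.0518), CGP array 2 (0.0874) or CGP array 3 (0.0757), and with the array number as a block (0.0958). The adjusted p of Pon3 ran from 0.000432 to 0.0958 over 15 alternatives. Slc38a4, a paternally expressed amino acid transporter abundant in liver, was at 8.92 and 7.96 (difference -0.96, adjusted p = 0.000304). It moved with the hepatocyte list given above, whose part in it was not tested.

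Igf2 and Igf2r belong to the insulin-like growth factor (IGF) system, of which 14 further genes of 16 listed were tested. Of the 14, 1 was higher, 1 was lower and 12 were not called (14.3% called, against 3.53% of all probe sets tested). Igf1r, the receptor through which IGF1 and IGF2 signal, was at 10.9 on average in the control group and 11.2 in the CGP group (difference 0.25, limma adjusted p = 0.0240). This call was lost without control array 2 (0.0624), control array 3 (0.0843), CGP array 1 (0.0873), CGP array 2 (0.121) or CGP array 3 (0.0637). It was also lost when probe sets without a single symbol were tested too (0.0532), and with the array number as a block (0.139). The adjusted p of Igf1r ran from 0.000283 to 0.139 over 15 alternatives. Igfbp2, an IGF carrier made in liver and other tissues, was at 8.31 and 7.71 (difference -0.60, adjusted p = 0.00137), again alongside the hepatocyte list, whose part was not tested.

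Genes that write, read or protect imprints formed another list, which includes DNA methyltransferases and ZFP57 with its partners. Of 22 listed, 19 were tested, none passed the adjusted threshold (limma), and the median difference was 0.03. An unadjusted p under 0.05 was found for 5 (26.3%, against 19.3% of all probe sets tested). All 5 were higher in the CGP group, and 10.8% of all probe sets tested were higher with such a p. The list's median on an array was 8.22 to 8.31 on the control arrays and 8.35 to 8.44 on the CGP arrays. The smallest adjusted p was that of Tet2, an enzyme that oxidises methylated cytosine, which was named after its value was seen (difference 0.30, adjusted p = 0.0690).

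**Figure D5:**
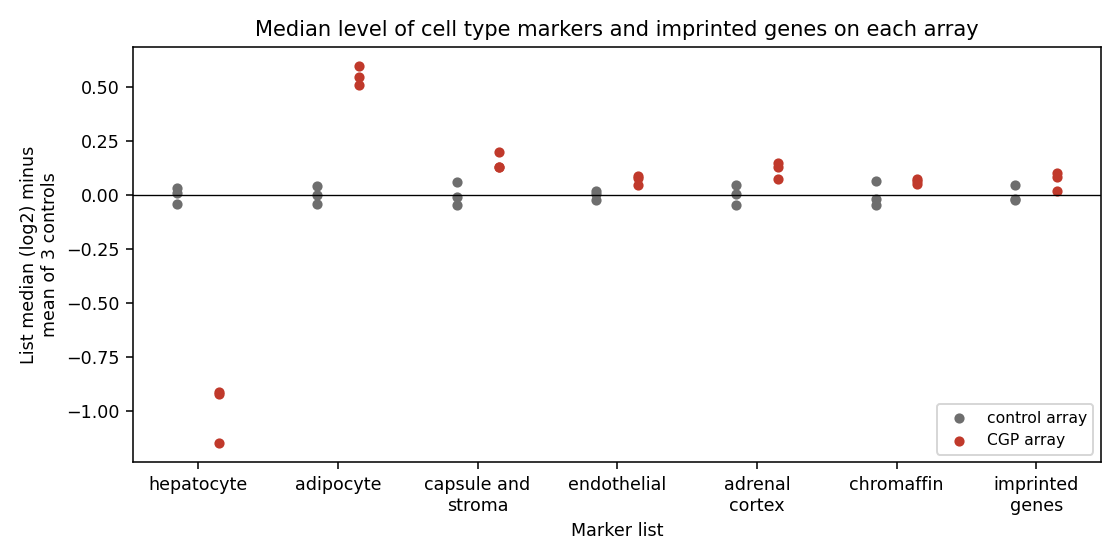
Median log2 value of each gene list on each array minus its mean over the 3 control arrays (grey control, red CGP). The hepatocyte list is lower and the adipocyte list higher on all CGP arrays, while the medians of the imprinted genes overlap, at levels of 8.55 to 8.62 on the control arrays and 8.60 to 8.68 on the CGP arrays.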

How the data were processed

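RNA from adrenals was hybridised to 6 Affymetrix whole-transcript arrays, 3 per group. The authors deposited a table of log2 expression values for 25150 probe sets, which the submitters' processing notes tie to RMA (background correction, quantile normalisation and summary of probes) and Partek. The sources used here name no annotation version and no build. The platform annotation gave 16769 probe sets a single gene symbol, 1031 several and 7350 none. Of the single-symbol probe sets, the 16034 that reached a log2 value of 6 on 3 or more arrays were kept, and 735 were left out. The comparison of groups used the eBayes test after lmFit (limma 3.58.1, R 4.3.3), two-sided and without covariates. Benjamini-Hochberg adjustment ran over all probe sets tested, at a threshold of 0.05. RMA puts all arrays on a common distribution, so a shift shared by most genes could not be seen. Among the members, values on every array are given for the gene past the threshold, the 8 next by p, the 6 brightest and Igf2. They are also given for Mir134 and for the probe sets of Ube3a and of Snurf and Snrpn. Other lists name up to 4 genes past the threshold, with group means. The members and lists were chosen with earlier results of these data known. The number of arrays limits the precision. An exact permutation test of 3 against 3 arrays cannot go below p = 0.1 and was not used.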

Additional observations from a re-analysis of the deposited data

Results flagged for a closer look

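A probe set outside those tested was flagged because all its CGP arrays lay above the control arrays, as in 13.7% of all probe sets tested. Only this direction was flagged, and the probe set of Snurf and Snrpn, with all CGP arrays below, is given further down. The probe set that names Ube3a, a maternally expressed ubiquitin ligase of the Prader-Willi/Angelman cluster, also names C230091D08Rik, Srebf2 and P3h3, so its value cannot be given to any of them. Its log2 values were 8.39, 8.09 and 8.24 on the control arrays and 8.40, 8.50 and 8.60 on the CGP arrays. All CGP arrays lay above the control arrays, by 0.26 on average, although CGP array 1 and control array 1 were close. This difference was not tested in the comparison of single-symbol probe sets.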

How the results depend on the processing

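The number of imprinted genes called was 1, and it was 4 with a filter at a log2 value of 7, 2 after quantile normalisation or median centring, 6 with a trended robust prior, 5 with array weights, 0 with all probe sets of the table and 0 to 4 without 1 array. None was called lower under any of these. The number of probe sets called, 566, became 1261 with the trended robust prior, 1665 with array weights and 236 to 1099 without 1 array. Other imprinted genes called, 3, became 5 and 9 under the prior and the weights. Imprint maintenance genes called, 0, became 1 with the higher filter, quantile normalisation, median centring or the prior, 4 with the weights and 0 to 3 without 1 array. MicroRNA genes called, 0, became 1 with the weights. IGF genes called, 2, became 3 with the higher filter, the prior or the weights, 1 with all probe sets and 1 to 2 without 1 array. The median difference of the imprinted genes ran from 0.025 to 0.083 without 1 array. Of 431 differences recomputed, 4 changed sign, all without 1 array, with ranges of -0.014 to 0.050 for Mest, -0.087 to 0.0085 for Klf14, -0.17 to 0.0018 for Phlda2 and -0.037 to 0.13 for Zim1. The cause of these changes was not tested.

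With the array number as a replicate block, 224 probe sets, 0 imprinted genes (Peg3 adjusted p = 0.0921) and 1 IGF gene were called. Arrays of the same number did not deviate together (r of -0.357 to -0.118 over 3 pairs), and 0 of 6 arrays were closest to their own number. Deviations within a group of 3 arrays depend on each other, so these values cannot decide whether the numbers pair the arrays. For genes near background, such as Zim1, Rian, Ascl2 and Zdbf2, the signal limits what can be measured.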

Other observations

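The other probe sets that share an imprinted gene with another symbol were outside the main comparison, which took probe sets with a single symbol, and are given as levels. The probe set of Snurf and Snrpn, joint transcripts of the Prader-Willi/Angelman cluster, was at 8.60, 8.58 and 8.71 on the control arrays and at 8.49, 8.50 and 8.50 on the CGP arrays. The CGP arrays lay below the control arrays, by a mean difference of -0.13, a separation seen in 12.6% of all probe sets tested. The probe set of Gnas, the stimulatory G protein subunit through which the ACTH receptor signals, and its antisense Gnasas1 had means of 11.71 and 11.70. A second probe set of Rian, shared with AF357355, had means of 8.51 and 8.23, and that of Mirg and Mir410 had means of 6.49 and 6.73, with overlap between the groups in both.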
